A study of Mus musculus with 23 samples.

Results

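The genes that hydroxylate and fold procollagen were examined in mouse bone across 4 groups of mice. They are the lysyl hydroxylases Plod1, Plod2, and Plod3, the prolyl 4-hydroxylase subunits P4ha1, P4ha2, and P4hb, the prolyl 3-hydroxylation complex of P3h1, Crtap, and Ppib, and the collagen chaperone Serpinh1. These 10 genes were found by symbol among 17644 genes with TPM values and matched by gene ID to a count table with 67228 entries, and all 10 were present in both. RNA came from femur and tibia of female C57BL6/N mice at 11 weeks of age, after the epiphyses had been removed and marrow had been spun out, with 1 library per mouse. WT Control (n = 5) and KO Control (n = 6) mice received saline. WT T1D (n = 6) and KO T1D (n = 6) mice received streptozotocin (STZ), a toxin for insulin-producing β cells, at 100 mg/kg on consecutive days, with a further dose where blood glucose had not risen enough, and their diabetes had lasted 3 weeks. KO stands for the libraries labelled Sarm1-KO, a global deletion that affects every tissue, so no cell type can be singled out as its site of action.

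Collagen chains are modified and folded in the endoplasmic reticulum (ER) before they are secreted. Prolyl 4-hydroxylation stabilizes the triple helix, and lysyl hydroxylation provides the sites for sugar attachment and for the cross-links that give bone matrix its strength. Prolyl 3-hydroxylation occurs at few sites, and the complex that performs it also helps the chains to fold. Osteoblasts, which secrete large amounts of type I collagen, depend on these enzymes, and inherited loss of CRTAP, P3H1, PPIB, or SERPINH1 causes brittle bones in humans.

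Total counts ranged from 16938101 to 20135592 per mouse, and the 10 genes together took from 0.0662% to 0.239% of them. Sarm1 was near the limit of detection, with 5 to 32 counts per mouse. In Control mice it averaged 1.17 ± 0.403 CPM for WT (SD, n = 5) and 0.799 ± 0.503 CPM for KO (n = 6), and in T1D mice 0.687 ± 0.293 CPM for WT and 1.19 ± 0.259 CPM for KO (n = 6 each), so these counts do not separate the libraries labelled Sarm1-KO from the WT libraries. Mice A3905 and A3906, both WT T1D, stood apart. The summed CPM of 10 osteoblast and osteocyte markers was 4383 in A3905 and 3492 in A3906, against 35819 to 78134 in the other 21 mice. Mepe, Sost, and Dmp1, osteocyte genes of this list singled out after their values were seen, were less low or not low in this pair. Phex, another gene of the list that osteocytes express, was low, at 2.34 and 3.26 TPM against 26.7 ± 6.87 TPM in WT Control (SD, n = 5). Mepe was at 127 and 128 TPM against 99.3 ± 28.6 TPM in WT Control (SD, n = 5), Sost at 61.0 and 73.0 TPM against 101 ± 26.6 TPM, and Dmp1 at 37.5 and 43.1 TPM against 68.4 ± 17.8 TPM. The changes of the 10 genes and the medians of gene lists in WT T1D are therefore given with and without this pair. IDs of 1 WT Control and 3 WT T1D mice began with A17, and all others with A36 to A39.

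Positions on GRCm38.p6 were taken from an annotation of that build. Plod1 and P3h1 lie on chromosome 4, Plod3 on chromosome 5, Serpinh1 on chromosome 7 (99345375 to 99353239), and Plod2, Crtap, and Ppib on chromosome 9. P4ha1 lies on chromosome 10, and P4ha2 (54100924 to 54131668) and P4hb (120560298 to 120573253) lie on chromosome 11, which also carries Sarm1. Annotated neighbors overlap Plod2 (B430319G15Rik), Plod3 (Znhit1 and Mir702), Crtap (4930520O04Rik), and Ppib (Snx22), and the reads of overlapping genes could have been divided between them.

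Promoters of 9 of the 10 genes were listed in RefSeq for GRCm38.p6, as windows of 250 bases before and 50 bases after each annotated start. The sequence before the start is shown for 3 of them. Serpinh1 and P4ha2 were taken because their RNA was furthest below WT Control in 2 WT T1D mice described below. P4hb was taken because it was less far below WT Control in the same mice, at 75.1% and 71.5% of the mean CPM. Each sequence is written 5′ to 3′ on the strand of its gene, with capitals on the hypoxia response core ACGTG or its reverse complement.
Serpinh1, chr7:99353240-99353489, minus strand: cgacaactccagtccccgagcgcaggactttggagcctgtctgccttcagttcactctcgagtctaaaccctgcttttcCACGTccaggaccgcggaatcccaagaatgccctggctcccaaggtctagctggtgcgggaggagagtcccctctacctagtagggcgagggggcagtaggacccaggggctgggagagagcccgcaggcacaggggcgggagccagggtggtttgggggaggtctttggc
P4ha2, chr11:54100674-54100923, plus strand: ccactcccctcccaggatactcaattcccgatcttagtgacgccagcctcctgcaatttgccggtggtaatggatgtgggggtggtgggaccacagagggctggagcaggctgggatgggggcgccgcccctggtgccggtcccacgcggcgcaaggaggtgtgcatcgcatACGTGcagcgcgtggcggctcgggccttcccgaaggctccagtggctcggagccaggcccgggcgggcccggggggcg
P4hb, chr11:120573254-120573503, minus strand: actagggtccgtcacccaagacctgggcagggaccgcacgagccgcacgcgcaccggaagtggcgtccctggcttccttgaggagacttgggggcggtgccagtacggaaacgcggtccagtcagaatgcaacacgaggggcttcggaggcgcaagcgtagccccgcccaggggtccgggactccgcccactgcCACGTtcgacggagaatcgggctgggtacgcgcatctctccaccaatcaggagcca
The core ACGTG was found on either strand in a promoter of 7 of the 9 genes, and in 21.8% of all 27025 genes in the table. It was absent from the windows of Plod1 and Crtap. The 10 promoters of these 9 genes (P3h1 has 2) had a median G and C content of 63.3%, against 52.7% for all promoters. The ER stress element, CCAAT and CCACG separated by any 9 bases, had no match in the windows of these genes and was found in 0.137% of all genes. The windows of Serpinh1, P4ha2, and P4hb each held the core ACGTG, and such matches are letters in a window, not shown binding sites.

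Levels were compared between genes with TPM, which is corrected for transcript length. In WT Control, Serpinh1, which holds newly folded procollagen and escorts it from the ER, had the highest level, at 454 TPM. P4hb, a disulfide isomerase that is also the noncatalytic subunit of prolyl 4-hydroxylase, followed at 275 TPM, and Ppib, the prolyl isomerase cyclophilin B, was at 197 TPM. Crtap (80.9 TPM), the cartilage-associated protein that scaffolds P3h1, and Plod2 (77.0 TPM), which hydroxylates lysines in the collagen telopeptides, were next, and their ranges overlapped. Plod3 (49.4 TPM), the lysyl hydroxylase that also adds sugars, was higher than P3h1 in 22 of 23 mice. P3h1 (39.03 TPM), the prolyl 3-hydroxylase, P4ha1 (38.3 TPM), a catalytic subunit of prolyl 4-hydroxylase, and Plod1 (36.3 TPM), which hydroxylates lysines of the helix, lay close together, and P3h1 exceeded P4ha1 in 15 and P4ha1 exceeded Plod1 in 14 of 23 mice. P4ha2 (16.7 TPM), the other catalytic subunit, was lowest and was below Plod1 in every mouse.

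**Figure D1:**
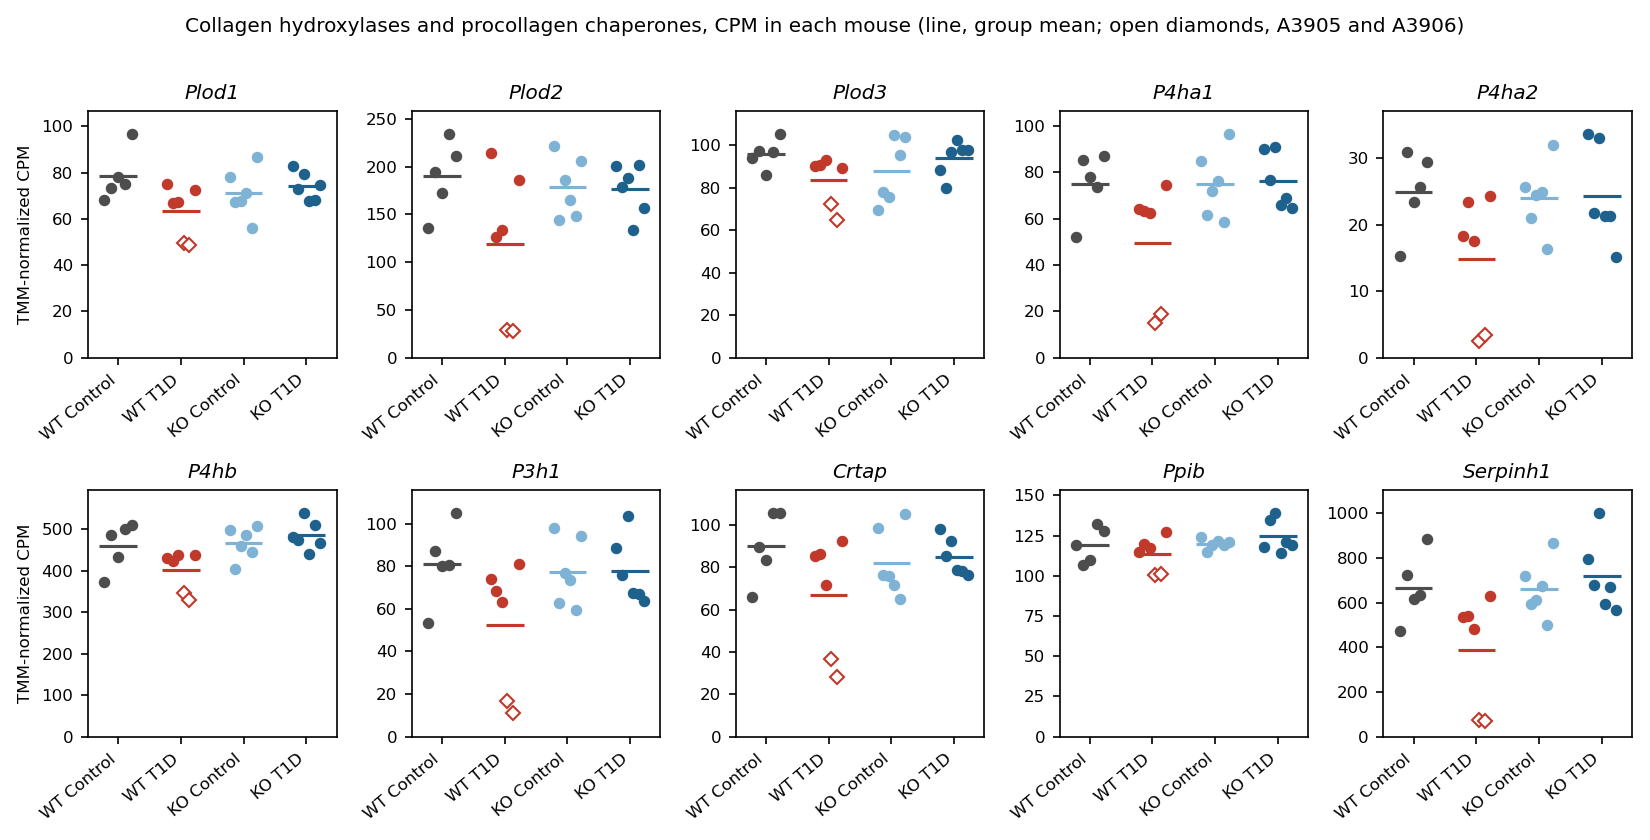
Normalized CPM (y axes, linear and starting at 0) of the 10 genes in each mouse of the 4 groups. Lines are group means, and open diamonds are A3905 and A3906. In 9 of the 10 panels this pair is the lowest of the 23 mice, and in the Plod3 panel A3906 is the lowest and 1 KO Control mouse lies between the pair.

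The first question was whether T1D altered these genes in WT bone. All 10 had a log2 fold change below 0 with T1D in WT mice, as did 51.9% of the 14364 genes tested, and none passed an adjusted p of 0.05 with edgeR's quasi-likelihood test, against 2.33% of all genes (either direction). DESeq2 also called 0 of the 10. At an unadjusted p under 0.05, 3 of the 10 were lower (Plod1, P4ha1, and P4hb), against 11.2% of all genes. The fitted changes were largest for Serpinh1, P4ha2, Plod2, P3h1, and P4ha1 and smallest for Ppib. In CPM, WT Control and WT T1D ranges overlapped for all 10 genes, whereas 2.19% of all genes had ranges that did not. In TPM those of Plod3 did not overlap, with 43.5 TPM in the highest WT T1D mouse and 44.4 TPM in the lowest WT Control mouse. The share of all genes was not counted in TPM, where the median log2 fold change over all genes was -0.24 with limma on log2(TPM + 1). Because bone was measured in bulk, fewer osteoblasts and less RNA per osteoblast cannot be told apart.

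Serpinh1 was measured at 471, 614, 634, 725, and 883 CPM in the 5 WT Control mice. The pair A3905 and A3906 was at 75.5 and 69.0 CPM. The other 4 WT T1D mice were at 481, 534, 537, and 628 CPM, within the range of WT Control. The lower end of that range was 1 mouse, A1757, and the next WT Control mouse was at 614 CPM. KO Control mice had from 498 to 865 CPM (median 641), and KO T1D mice had from 567 to 1003 CPM (median 674). A3905 and A3906 were therefore far below the other 21 mice, whose lowest value was in WT Control. For T1D against Control in WT, the log2 fold change was -0.78 ± 0.39 (SE, edgeR adjusted p = 0.245), and without A3905 and A3906 it was -0.29 ± 0.18 (adjusted p = 0.561).

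The prolyl 4-hydroxylase subunits differed in how far they lay below WT Control in A3905 and A3906. P4ha2 was at 15.2, 23.4, 25.6, 29.4, and 31.0 CPM in WT Control. It was at 2.55 CPM in A3905 and 3.41 CPM in A3906, which came from 45 and 59 counts, and from 17.5 to 24.3 CPM in the other WT T1D mice. P4ha1 was at 52.0, 73.4, 78.1, 85.1, and 87.0 CPM in WT Control, at 14.8 and 18.7 CPM in A3905 and A3906, and from 62.4 to 74.3 CPM in the other WT T1D mice. Both catalytic subunits were thus within the WT Control range in 4 of 6 WT T1D mice. The lower end of that range was A1757 for both, and the next WT Control values were 23.4 CPM for P4ha2 and 73.4 CPM for P4ha1. P4hb was at 373, 433, 485, 499, and 509 CPM in WT Control, and at 346 and 329 CPM in A3905 and A3906, just below the lowest WT Control mouse. The other WT T1D mice had from 423 to 439 CPM. Log2 fold changes in WT were -0.74 ± 0.39 for P4ha2 (adjusted p = 0.264), -0.60 ± 0.29 for P4ha1 (adjusted p = 0.223), and -0.20 ± 0.09 for P4hb (adjusted p = 0.211, SE in each case). With that pair left out they were -0.26, -0.19, and -0.09.

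Among the lysyl hydroxylases, Plod2 had the widest spread. It was at 136, 173, 194, 211, and 235 CPM in WT Control, at 28.6 and 28.4 CPM in A3905 and A3906, and at 126, 134, 186, and 215 CPM in the other WT T1D mice. In all, 4 values of the WT T1D group were therefore below every WT Control mouse. Plod1 was at 68.1, 73.3, 75.2, 78.2, and 96.8 CPM in WT Control and at 49.6 and 48.7 CPM in A3905 and A3906. The other WT T1D mice had from 66.8 to 75.0 CPM for Plod1, and here too 4 of the 6 were below every WT Control mouse, 2 of them by less than 2 CPM. Plod3 was at 85.9 to 106 CPM in WT Control (median 97.1), 72.4 and 64.8 CPM in A3905 and A3906, and 89.6 to 93.3 CPM in the other WT T1D mice. T1D against Control in WT gave log2 fold changes of -0.67 ± 0.35 for Plod2 (adjusted p = 0.271), -0.31 ± 0.12 for Plod1 (adjusted p = 0.129) and -0.20 ± 0.11 for Plod3 (adjusted p = 0.289). Leaving that pair out gave -0.21, -0.16, and -0.08.

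The 3 subunits of the prolyl 3-hydroxylation complex were unequally low in A3905 and A3906. P3h1 was at 53.2, 80.4, 80.4, 87.3, and 105 CPM in WT Control, and at 16.9 and 11.2 CPM in A3905 and A3906. Crtap was at 65.8, 83.5, 89.3, 106, and 106 CPM in WT Control, and at 36.7 and 28.4 CPM in that pair. Ppib was at 106, 109.6, 119, 128, and 132 CPM in WT Control, and the same pair had 101 CPM each. In the other 4 WT T1D mice, P3h1 was from 63.4 to 81.3 CPM, Crtap from 71.6 to 92.5 CPM, and Ppib from 115 to 127 CPM, all within the WT Control ranges. For P3h1 and Crtap the lower end of that range was 1 mouse, A1757. Against the next WT Control value, 80.4 CPM, P3h1 was at 63.4, 68.2, 74.0, and 81.3 CPM in these 4. Log2 fold changes in WT were -0.63 ± 0.34 for P3h1 (adjusted p = 0.277), -0.43 ± 0.22 for Crtap (adjusted p = 0.262), and -0.07 ± 0.07 for Ppib (adjusted p = 0.592). Leaving A3905 and A3906 out gave -0.19, -0.11, and 0.00.

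The result in WT depended on which mice and which scale were used. Without A3905 and A3906, log2 fold changes ran from -0.29 (Serpinh1) to 0.00 (Ppib), with adjusted p from 0.561 to 0.993. In the A36 to A39 mice alone, where A3905 and A3906 are 2 of 3 WT T1D mice against 4 WT Control mice, Plod1, Plod2, P4ha1, P4hb, P3h1, and Crtap passed the threshold and were lower, against 7.66% of all genes in that direction. The changes of these 6 ran from -0.37 ± 0.11 (P4hb, edgeR adjusted p = 0.0292) to -1.32 ± 0.44 (Plod2, adjusted p = 0.0464). The A17 mice held 1 WT Control mouse, A1757, which allows no test. In CPM, A1757 was the lowest WT Control mouse for each of the 10 genes except Plod3 and Ppib. Without A1757, 7 of the 10 were lower at an unadjusted p under 0.05 (edgeR), against 3515 of 14344 genes in either direction. None of the 10 passed the adjusted threshold in that fit. All 3 A17 WT T1D mice were above A1757 for P4ha1, P4ha2, P4hb, P3h1, Crtap, and Serpinh1, as for 26.4% of all genes, with P3h1 at 74.0, 68.2, and 63.4 CPM against 53.2 CPM. With limma on log2(TPM + 1), all 10 passed the adjusted threshold and were lower, against 35.3% of all genes, and the median over all genes was -0.24 on this scale. On that scale values ran from -0.35 ± 0.11 for Ppib (limma adjusted p = 0.024) to -1.51 ± 0.50 for Serpinh1 (limma adjusted p = 0.0256).

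**Figure D2:**
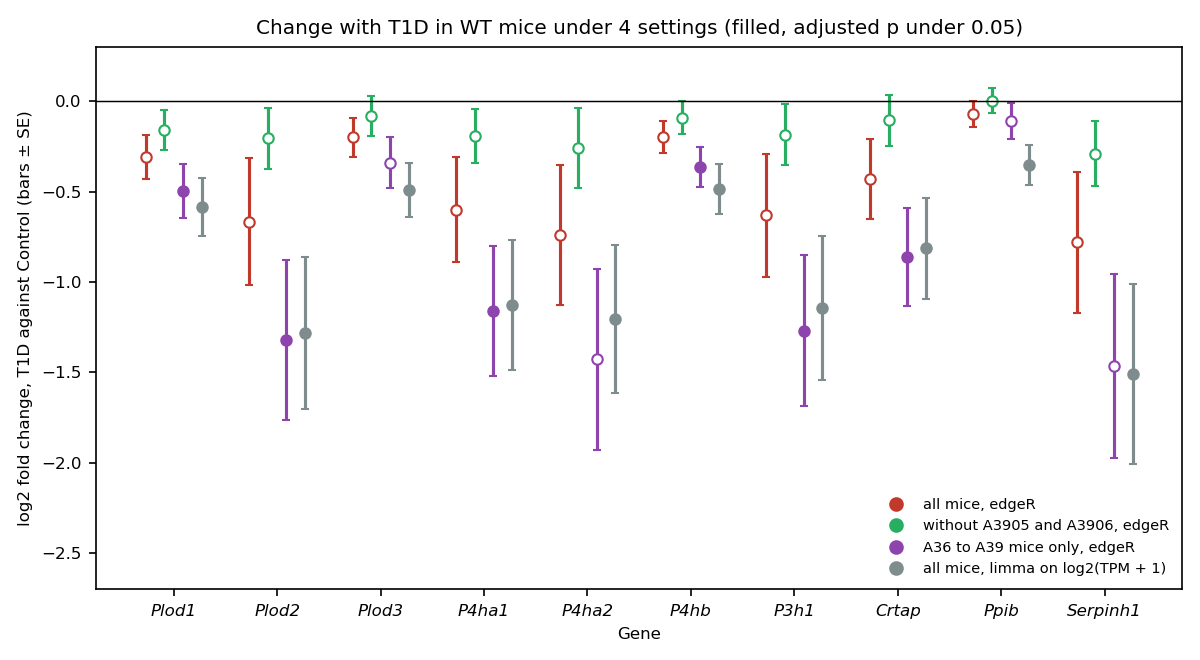
Log2 fold change with T1D in WT mice (y axis, bars ± SE) for the 10 genes (x axis) in all mice, without A3905 and A3906, in the A36 to A39 mice, and in all mice with limma on TPM. Filled points passed an adjusted p of 0.05. The Serpinh1 points range from -0.29 without the pair to -1.51 with TPM.

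In KO mice, the same genes were close to their Control values with T1D. The log2 fold changes ran from -0.01 ± 0.34 (Plod2) to 0.12 ± 0.37 (Serpinh1), with SE from 0.07 to 0.37 and edgeR adjusted p = 1.0 for all 10. None of the 10 passed the threshold, none had an unadjusted p under 0.05, and the share over all genes was 0.0%, with 452 genes at an unadjusted p under 0.05. DESeq2 called 0 genes in this comparison. KO T1D means were from 99.0% of the KO Control mean for Plod2 to 109% for Serpinh1. The SE of 0.37 for Serpinh1 came from a fit in which the 4 groups shared a common estimate of spread. It leaves room for changes that this fit could not resolve. In the fit without A3905 and A3906, the changes in KO mice were 0.12 ± 0.15 for Serpinh1 and -0.02 ± 0.15 for Plod2.

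Whether the change with T1D differed between genotypes was tested with the interaction term. It was above 0 for all 10 genes, which means a higher T1D value relative to Control in KO than in WT, and ran from 0.12 ± 0.10 (Ppib) to 0.90 ± 0.54 (Serpinh1). None passed the threshold with edgeR (adjusted p from 0.479 to 0.656) or DESeq2, and the share over all genes was 0.0%. At an unadjusted p under 0.05, 1 of the 10 passed, Plod1 (0.37 ± 0.16, edgeR unadjusted p = 0.0341), against 4.81% of all genes in that direction. This count was 9 of the 10 in the A36 to A39 mice, against 11.3% of all genes, and 8 of the 10 with limma on log2(TPM + 1), against 22.1%, and again none passed the adjusted threshold. Without A3905 and A3906, the terms were between 0.05 ± 0.10 (Ppib) and 0.41 ± 0.23 (Serpinh1). A difference between genotypes in the response of these genes did not pass the adjusted threshold under these settings.

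Genotype itself was compared in Control and in T1D mice. In Control mice, 8 of the 10 genes were below 0 and 2 above, and log2 differences of KO from WT ran from -0.14 ± 0.12 (Plod1) to 0.02 ± 0.09 (P4hb). None passed the adjusted threshold with edgeR, against 0.0278% of all genes, and DESeq2 called none. None had an unadjusted p under 0.05 with edgeR, against 690 of all 14364 genes. In T1D mice, all 10 genes were higher in KO, from 0.14 ± 0.07 (Ppib) to 0.89 ± 0.38 (Serpinh1). None passed the adjusted threshold (0.0905% of all genes did), and DESeq2 also called 0 of the 10. At an unadjusted p under 0.05, 3 of the 10 were higher in KO T1D, against 8.44% of all genes. These were P4hb (0.27 ± 0.09, edgeR unadjusted p = 0.00529), Serpinh1 (unadjusted p = 0.0276), and P4ha1 (0.62 ± 0.28, unadjusted p = 0.0354).

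P4hb was the 1 gene of the 10 whose WT T1D and KO T1D ranges did not overlap in CPM, a property of 0.863% of all genes. The highest WT T1D mouse had 438.6 CPM and the lowest KO T1D mouse 439.8 CPM. In TPM the ranges of P4hb overlapped, with 248.5 TPM in the highest WT T1D mouse and 247.9 TPM in the lowest KO T1D mouse. In the A36 to A39 mice, P4hb and P4ha1 passed the adjusted threshold and were higher in KO T1D, against 5.67% of all genes, with P4hb at 0.38 ± 0.10 (edgeR adjusted p = 0.0252) and P4ha1 at 1.08 ± 0.34 (adjusted p = 0.0476). With limma on log2(TPM + 1), P4hb (0.48 ± 0.14, limma adjusted p = 0.0443) and Serpinh1 (1.54 ± 0.47, limma adjusted p = 0.0493) passed, against 7.89% of all genes higher in KO T1D, and the median over all genes was 0.17. With A3905 and A3906 left out, the 10 differences ran from 0.02 ± 0.14 (Crtap) to 0.40 ± 0.17 (Serpinh1, edgeR adjusted p = 0.747), and P4hb was at 0.16 ± 0.09 (adjusted p = 0.781). The comparisons of T1D with Control in WT and of KO with WT in T1D share the 6 WT T1D mice, so their changes are not separate observations.

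**Figure D3:**
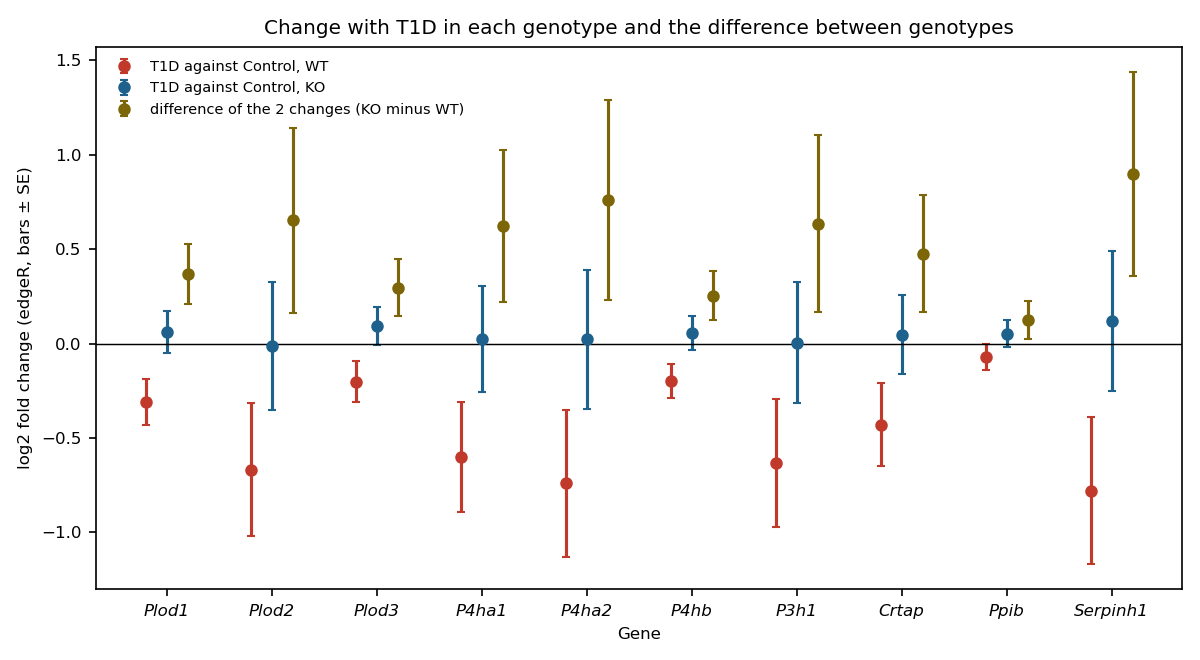
Log2 fold change with T1D in WT and in KO mice and the difference between them (y axis, edgeR, bars ± SE) for the 10 genes (x axis). WT points lie from -0.78 to -0.07, KO points lie from -0.01 to 0.12, and none passed an adjusted p of 0.05.

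In CPM, the 10 genes were low by unequal amounts in A3905 and A3906. This pair was the lowest of 23 mice for 9 of the 10 genes, against 15.1% of all genes, and both mice were under 50% of the WT Control mean for 6 of the 10, against 8.8% of all genes. The pair was set apart after the values were seen, and its low osteoblast markers included Col1a1, so these counts are descriptions. Serpinh1 was at 11.3% and 10.4% of the WT Control mean, P4ha2 at 10.2% and 13.7%, and Plod2 at 15.1% and 15.0%. P3h1 (20.7% and 13.7%), P4ha1 (19.7% and 24.9%), and Crtap (40.8% and 31.5%) came next. Plod1, Plod3, and P4hb stayed between 62.2% and 75.4%, and Ppib was at 84.6% and 84.7%. P4hb and Ppib, whose proteins serve many secreted proteins besides collagen, were among the less low genes, as were the lysyl hydroxylases Plod1 and Plod3. The cause of these differences was not tested. The other 4 WT T1D mice averaged from 82.0% (Serpinh1) to 100.4% (Ppib) of the WT Control mean.

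**Figure D4:**
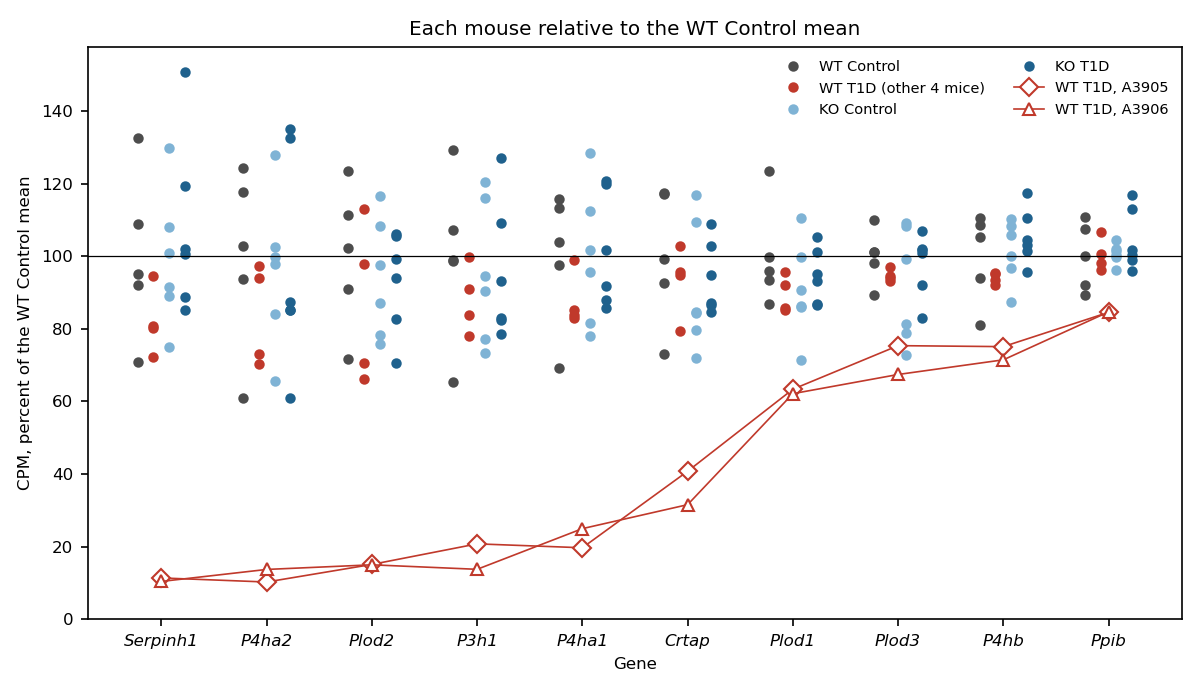
CPM of each mouse as a percentage of the WT Control mean (y axis, linear and starting at 0), with genes ordered by their level in the 2 WT T1D mice A3905 and A3906 (open symbols joined by lines). Serpinh1, P4ha2, and Plod2 lie at 10.2% to 15.1% in the pair, and Ppib lies at 84.6% and 84.7%.

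The proportions of the subunits also differed in this pair. The TPM ratio of P4hb to P4ha1 plus P4ha2 was 5.20 ± 0.937 in WT Control (SD, n = 5), 5.40 ± 0.547 in KO Control (n = 6), and 5.66 ± 1.01 in KO T1D (n = 6). It was 24.2 in A3905 and 18.1 in A3906, and from 5.17 to 6.22 in the other WT T1D mice. P4ha1 to P4ha2 was 2.29 ± 0.169 in WT Control and 4.00 and 3.77 in the pair, so P4ha2 was lower relative to P4ha1 there. Plod2 to Plod1 was 2.13 ± 0.395 in WT Control and 0.503 and 0.510 in the pair, where helical lysyl hydroxylase RNA exceeded that of the telopeptide enzyme. P3h1 to Crtap was 0.480 ± 0.0577 in WT Control and 0.250 and 0.207 in the pair. In the other 21 mice, these 4 ratios stayed within the ranges of 4.35 to 7.04, 1.94 to 2.90, 1.65 to 2.73, and 0.402 to 0.596, in the order given.

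Substrate and enzymes were set side by side through the type I collagen chains. The summed TPM of Col1a1 and Col1a2 was 21331 ± 5507 in WT Control (SD, n = 5) and 16786 ± 5247 in KO Control, and in T1D mice it was 9832 ± 7109 for WT and 18331 ± 3078 for KO (n = 6 each). It was 937 in A3905 and 717 in A3906, or 4.39% and 3.36% of the WT Control mean TPM, and 14335 ± 1766 in the other 4 WT T1D mice. The percentages of the 10 genes above are of CPM. In TPM, Serpinh1 was at 7.88% and 7.45% of the WT Control mean in A3905 and A3906, and Ppib at 59.5% and 61.6%. Serpinh1 stood at 21.4 ± 1.33 TPM per 1000 TPM of these chains in WT Control, at 38.2 and 47.3 in A3905 and A3906, and at 22.8 ± 2.83 in the other WT T1D mice. P4ha2 stood at 0.782 ± 0.0677 per 1000 in WT Control and at 1.27 and 2.29 in the pair. Ppib stood at 9.78 ± 2.78 per 1000 in WT Control and at 125 and 169 in the pair. Type I collagen RNA was thus lower relative to WT Control than the RNA of each of the 10 genes in these mice. Of the 10 genes, P3h1 had the smallest SD relative to its mean in WT Control, at 1.83 ± 0.0558 per 1000.

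Genes of the same pathway were described from lists written from general knowledge, and none of their genes passed an adjusted p of 0.05 in any of the 5 comparisons with edgeR. Over the 10 hydroxylases and chaperones, the median log2 fold change in WT was -0.52, and -0.17 without A3905 and A3906, while the median over all genes was -0.011. For the list counts in WT, the shares over all genes were 51.9% below 0 and 11.2% lower at an unadjusted p under 0.05. Of 12 partners in collagen hydroxylation, 9 had a log2 fold change below 0, 7 of them at an unadjusted p under 0.05, with a median of -0.53 (-0.16 without the pair). Among them, Fkbp10, a prolyl isomerase that assists lysyl hydroxylation of telopeptides, had -0.65 ± 0.29 (edgeR adjusted p = 0.195), Fkbp7 had -0.66 ± 0.31 (adjusted p = 0.211), and the disulfide isomerase Pdia3 had -0.24 ± 0.09 (adjusted p = 0.122). All 14 tested genes of procollagen export and processing were below 0, 8 at an unadjusted p under 0.05, with a median of -0.59 (-0.21 without the pair). Mia2, the other gene of that list, was not analysed here. Pcolce, which enhances removal of the C-propeptide, had -0.51 ± 0.30 (adjusted p = 0.314). Lox and Loxl2, which start cross-linking at lysines and hydroxylysines, had -0.67 ± 0.37 (adjusted p = 0.295) and -0.55 ± 0.48 (adjusted p = 0.520).

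All 9 fibrillar collagen chains had log2 fold changes below 0 with T1D in WT, 2 at an unadjusted p under 0.05, with a median of -0.90 (-0.36 without the pair). Col1a1 had -0.91 ± 0.49 (edgeR adjusted p = 0.282), Col1a2 had -0.90 ± 0.48 (adjusted p = 0.274), and Col11a1 had -0.92 ± 0.56 (adjusted p = 0.346). All 10 general ER chaperones were also below 0, 5 at an unadjusted p under 0.05, but their median was -0.22 (-0.09 without the pair). Calr had -0.08 ± 0.11 (adjusted p = 0.698) and Hspa5, the main ER member of the HSP70 family, had -0.13 ± 0.11 (adjusted p = 0.510). Hsp90b1 had -0.28 ± 0.11 (adjusted p = 0.153). Genes known to rise in low oxygen, as P4ha1, P4ha2, Plod1, and Plod2 are, had a median of -0.03 with and without the pair, with 6 of 12 below 0. Of these, the glycolytic enzymes Ldha (0.03 ± 0.09, adjusted p = 0.876) and Pgk1 (0.08 ± 0.09, adjusted p = 0.633) were near 0, and Ndrg1 had -0.30 ± 0.10 (adjusted p = 0.0971).

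**Figure D5:**
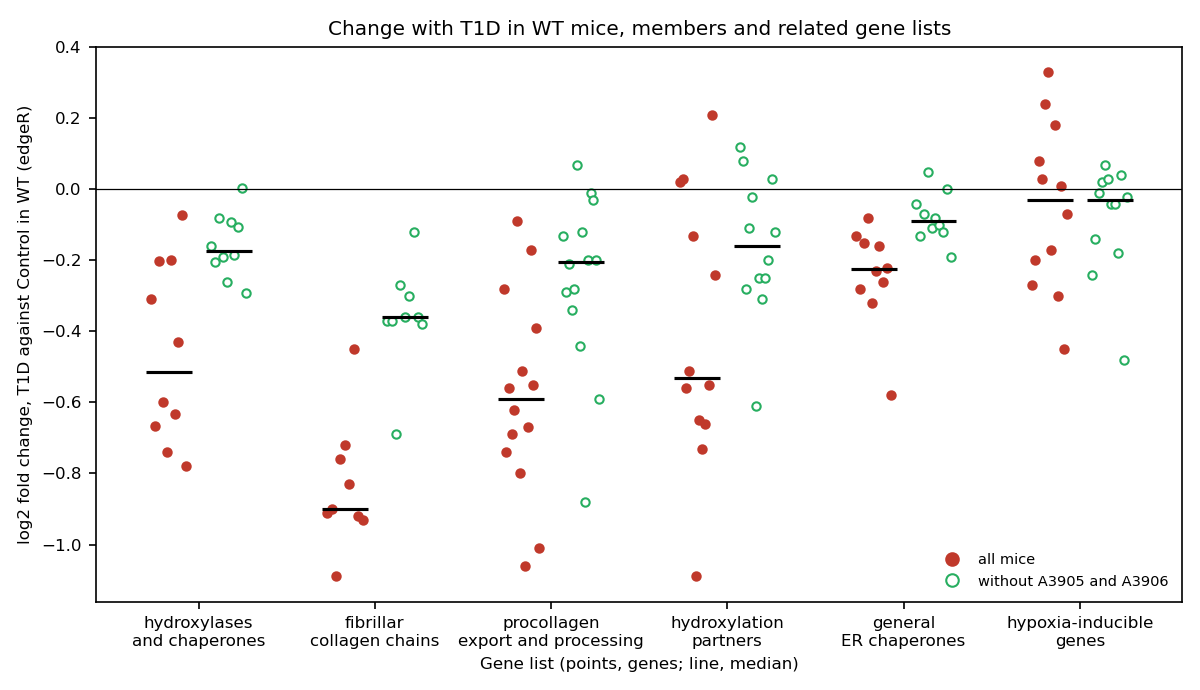
Log2 fold change with T1D in WT mice (y axis, edgeR) for the genes of each list (x axis), in all mice (filled) and without A3905 and A3906 (open), with lines at the medians. The medians without the pair lie between -0.36 for fibrillar collagen chains and -0.03 for hypoxia-inducible genes.

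In KO mice, the medians with T1D were -0.02 for the hydroxylation partners, 0.06 for export and processing, 0.15 for fibrillar collagen chains, 0.01 for general ER chaperones, and 0.05 for the 10 genes themselves. None of these lists had a gene at an unadjusted p under 0.05 in KO mice, where 452 of all 14364 genes did. The hypoxia-inducible genes had a median of 0.00 there, also with 0 genes at an unadjusted p under 0.05.

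The 10 genes varied together across mice to different degrees. Over all 23 mice, Pearson's r of log2 CPM between pairs of them ranged from 0.404 to 0.987 with a median of 0.840 over 45 pairs. Over the 21 mice without A3905 and A3906, the median was 0.641 (range -0.074 to 0.939), and over the 12 KO mice it was 0.669 (range -0.279 to 0.948). P4ha1, P3h1, and Serpinh1 stayed close to each other in KO mice (r = 0.948 for P4ha1 with P3h1 and 0.923 for P4ha1 with Serpinh1). Plod3 stood apart, with r = 0.012 with P4ha1 and -0.279 with Plod2 in KO mice. These values are descriptions over mice that share groups and a common scaling of their libraries.

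The genes most like each member across the 23 mice were named, with r among the 12 KO mice in parentheses. P3h1 was most like Col5a2, a chain of type V collagen, at r = 0.993 (0.968), and Gja1, the gap junction protein connexin 43, at r = 0.991 (0.923). Serpinh1 was most like Col22a1 at r = 0.990 (0.958) and Col5a2 at r = 0.989 (0.934). Crtap was most like Fkbp10 at r = 0.979 (0.920) and Alpl, tissue-nonspecific alkaline phosphatase, at r = 0.977 (0.938). P4ha1 was most like Pcsk6, a proprotein convertase, at r = 0.992 (0.953) and Cdh2, or N-cadherin, at r = 0.990 (0.964), and P4ha2 was most like Cemip at r = 0.980 (0.875) and Pcsk6 at r = 0.978 (0.874). Plod1 was most like Vasn at r = 0.936 (0.904) and Mrc2, a collagen uptake receptor, at r = 0.934 (0.892), and Plod2 was most like Rerg at r = 0.985 (0.803) and Slc8a3 at r = 0.981 (0.754).

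The members closest to WT Control in A3905 and A3906 had other neighbors. P4hb was most like Nme2 at r = 0.934 (0.775) and Rpn1, a subunit of the ER oligosaccharyltransferase, at r = 0.934 (0.878). Plod3 was most like Cnpy3 at r = 0.828 (0.868) and Cog4, a Golgi trafficking protein, at r = 0.825 (0.886), and Ppib was most like Nr2f6 at r = 0.811 (0.678) and Mtcl1 at r = 0.786 (0.589). When the 21 mice without A3905 and A3906 were used to rank genes, a choice made after seeing the data, at least 1 of the named neighbors remained for Plod2, P4hb, P3h1, and Crtap. For Serpinh1 the ranking then gave Rcn3 (r = 0.957 over 21 mice) and Maged1 (r = 0.936).

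Markers of other cells moved with the values in A3905 and A3906. Summed CPM of 10 erythroid markers was 238203 and 233163 in this pair, the highest of 23 mice, and from 81201 to 179745 in the other 21. In WT T1D mice, 6 of 10 erythroid markers passed the adjusted threshold and were higher, against 1.5% of all genes, with a median log2 fold change of 0.64 over the list. Without the pair the median was 0.41, and with edgeR 0 genes of the whole table passed, with 1571 at an unadjusted p under 0.05. Sums of 7 osteoclast markers (4301 and 4605 CPM) and 8 neutrophil markers (45711 and 41364 CPM) were also the highest of 23 mice in this pair. Sums of 8 growth plate chondrocyte markers (199 and 231 CPM), 7 fibroblast and tendon markers (458 and 491 CPM), and 6 B-cell markers (159 and 193 CPM) were the lowest. Sums of 6 skeletal muscle markers lay within the range of the others. No gene of these lists was at 0 in every mouse. Of the 10 osteoblast and osteocyte markers, 9 were below 0 in WT T1D, and 1 passed the adjusted threshold (Ibsp, bone sialoprotein, -0.78 ± 0.15, edgeR adjusted p = 0.0236), against 0.828% of all genes lower. Without the pair Ibsp was at -0.62 and did not pass. The part of these cell types in the values of the hydroxylases and chaperones was not tested.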

How the data were processed

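RNA was sequenced from marrow-depleted bone of 23 mice, 1 library per mouse. The authors deposited unnormalized expected counts from RSEM, which they had rounded, together with TPM that the sequencing provider had computed, after filtering with SOAPnuke and alignment with HISAT and Bowtie2 to GRCm38.p6 (versions not given in the sources used here). Libraries were stranded. Depth was 16938101 to 20135592 counts per mouse, which limits precision for genes with few counts, and intervals reflect the spread between mice. Groups were taken from the library labels. No mouse number was shared between groups.

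The 14364 genes that reached 10 counts in 5 or more mice were normalized with TMM and fitted with a 4-group quasi-likelihood model in edgeR 4.0.16 (R 4.3.3), with contrasts for T1D in each genotype, their interaction, and genotype in each condition. Benjamini-Hochberg adjustment covered all tested genes, and the threshold was 0.05. The fit was tested on simulated counts in which chosen genes were shifted alike in every WT T1D mouse. No outlying pair or difference by mouse number was simulated, so that test does not cover these features. Correlations used log2(CPM + 0.5). Alternatives used DESeq2 1.42.0, limma 3.58.1 on log2(TPM + 1) or log2(TPM + 0.1), RLE or upper-quartile scaling, no count filter, only the groups compared, the A36 to A39 mice, and leaving out mice. Named genes were the 10 members, Sarm1, the 3 genes with the highest mean TPM of each pathway list plus any past the threshold, and the 2 genes most correlated with each member. The members and lists were chosen with earlier results of these data known.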

Additional observations from a re-analysis of the deposited data

How the results depend on the processing

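No paired analysis was possible because no mouse number was shared between groups. The number of the 10 hydroxylases and chaperones past an adjusted p of 0.05 stayed at 0 in all 5 comparisons with DESeq2, RLE or upper-quartile scaling, no count filter, only the groups compared (not available for the interaction), without A3905 and A3906, and with each mouse left out in turn. Exceptions for T1D in WT were 10 with limma on log2(TPM + 1) or log2(TPM + 0.1) and 6 in the A36 to A39 mice. Exceptions for KO against WT in T1D were 2 under each of these 3 settings. The median log2 fold change for T1D in WT was -0.52. It was -0.97 and -1.01 with limma (pseudocounts 1 and 0.1), -1.01 in the A36 to A39 mice, and -0.17 without A3905 and A3906. The interaction median was 0.55, with 0.96 and 1.00 in limma, 1.04 in the A36 to A39 mice, and 0.19 without the pair. The KO against WT in T1D median was 0.45, with 0.83 and 0.87, 0.88, and 0.11. With 1 mouse left out, these medians ranged from -0.65 (without A3909) to -0.34 (without A3906) for T1D in WT, from 0.36 (without A3906) to 0.68 (without A3909) for the interaction, and from 0.28 (without A3906) to 0.60 (without A3909) for KO against WT in T1D. Without A3905 they were -0.35, 0.38, and 0.29. The cause of these shifts was not tested. Without A3905 and A3906, the log2 change in WT reversed for Ppib (0.003), Calr (0.05), and Pgk1 (-0.007), all with edgeR adjusted p over 0.9. With limma at either pseudocount it reversed for Ldha (-0.25) and Pgk1 (-0.21). The number of all genes past the threshold for T1D in WT was 334, against 1002 with DESeq2, 2211 in the A36 to A39 mice, 5154 with limma on log2(TPM + 1), 5173 on log2(TPM + 0.1), 88 without the count filter, 0 with only the WT groups, and 0 without A3905 and A3906. When 1 mouse was left out it ranged from 0 (without A3767 or A3907) to 1262 (without A3909). P4ha2, with 45 and 59 counts in A3905 and A3906, had the fewest counts of the 10 genes.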
